A study of Homo sapiens with 18 samples.

Results

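The genes described here are 32 known transcriptional targets of the tumour suppressor p53, among the 60649 genes counted in LNCaP cells. They were chosen by name, from knowledge of the pathway, with earlier results of these data known. A member was followed if it passed a filter on low counts, and all 32 did, among 15390 genes that passed in all. They fall into 6 roles: 8 genes of cell cycle arrest and growth control, 3 feedback regulators of p53, 8 genes of apoptosis, 5 death and decoy receptors, 4 genes of DNA repair and nucleotide supply, and 4 genes of metabolism and mitochondria.

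The protein p53 is a transcription factor that is kept scarce by the ubiquitin ligase MDM2 and is stabilised by DNA damage and other stress. It then binds response elements near its target genes and raises their transcription, which halts the cell cycle, aids DNA repair or favours apoptosis. Many targets, CDKN1A among them, are also driven by other factors, so that a level of one target does not read out p53 activity. LNCaP is a human prostate cancer line that depends on the androgen receptor.

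RNA was sequenced in 18 libraries, 3 biological replicates in each of 6 groups: UPF1 siRNA with R1881, UPF1 siRNA with vehicle, RCOR1 siRNA with R1881, RCOR1 siRNA with vehicle, control siRNA with R1881, and control siRNA with vehicle. UPF1 is the RNA helicase of nonsense-mediated decay, and RCOR1 is the scaffold of the CoREST repressor complex. R1881 is a synthetic androgen, given at 5 nM for 48 h, and vehicle was ethanol. All groups were transfected with siRNA and then held in medium deprived of androgen, the control groups included. LNCaP is 1 cell line and each gene was targeted with 1 siRNA pool, so effects of the lost protein and other effects of a pool cannot be told apart.

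Totals per library lay between 10299607 and 17338235 counts. UPF1 stood at 26.3 ± 0.67 CPM (counts scaled to a common library size; SD, n = 3) with its siRNA and 149 ± 13 CPM with control siRNA in R1881, and at 22.8 ± 2.8 CPM and 134 ± 18 CPM in vehicle. RCOR1 stood at 12.5 ± 0.3 CPM with its siRNA and 79.7 ± 10 CPM with control siRNA in R1881, and at 12.8 ± 3.4 CPM and 99.6 ± 8.8 CPM in vehicle. All 8 LNCaP markers had at least 8.52 CPM in every library. Of 8 markers of other cell types, 6 stayed below 1 CPM in every library, TP63 and CHGA among them at 0, and KRT14 and COL1A1 exceeded it. The summed level of the 8 per library was 10.1 to 12.7, 7.89 to 10.2 and 5.33 to 7.71 CPM in R1881 with UPF1, RCOR1 and control siRNA, and 9.09 to 11.3, 12.3 to 13.6 and 9.9 to 10.7 CPM in vehicle. Its part in the results below was not tested. Replicates 1 and 2 of UPF1 siRNA with R1881 were the libraries lowest in genes whose transcript has a GC content below 40%. These genes deviated there by a median of -0.63 and -0.44 log2 CPM from their mean over all libraries, against -0.32 to 0.42 in the other libraries. Replicates of the other groups spread in this measure too. With control siRNA they lay between -0.32 and 0.30 in R1881 and between -0.32 and 0.26 in vehicle. With RCOR1 siRNA they lay between -0.085 and 0.37 in R1881 and between -0.21 and 0.26 in vehicle. UPF1 siRNA in vehicle lay between -0.16 and 0.42. The part of this spread in other comparisons was not tested beyond the alternative fits given below. Calls that rest on UPF1 siRNA with R1881 are also given without its replicates 1 and 2.

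With R1881, the p53 targets fell more often than they rose in all 3 siRNA arms. BTG2, SESN1, TP53INP1, DDB2 and FDXR were among the members that fell, and the death receptor gene TNFRSF10B rose in each arm. With control siRNA, 15 of the 32 members were lower in R1881 than in vehicle (46.9%) and 3 were higher (9.38%), at a Benjamini-Hochberg adjusted p below 0.05 in edgeR's quasi-likelihood test over all 15390 genes. Over all genes tested, 17.6% were lower, 20.1% were higher and 37.7% were called in either direction. The median log2 fold change was -0.32 over the members and 0.02 over all genes. In a bulk culture, fewer cells that express a gene and less of its RNA per cell cannot be told apart.

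With UPF1 siRNA, 20 members were lower and 4 were higher in R1881 than in vehicle, where 20% of all genes were lower, 21.6% were higher and 41.6% were called. The median was -0.64 over the members and -0.01 over all genes. Without the low libraries named above some of these calls were lost. The group then has 1 library left, which is assumed to vary like the others. The share of all genes called in that fit was not computed, so the loss was not set against other genes. Values for the members that lost their call are given with those members below. With RCOR1 siRNA, 14 members were lower and 3 were higher, where 14.9% of all genes were lower, 16.3% were higher and 31.2% were called. The median was -0.26 over the members and 0.02 over all genes. In each of the 3 arms 12 members, described by role below, were lower, 2 were higher in each, 6 were called in no arm, and 0 were called in opposite directions. How many of all genes were called alike in the 3 arms was not computed, so these counts were not set against other genes. The plot of R1881 responses shows the 3 arms gene by gene.

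**Figure D1:**
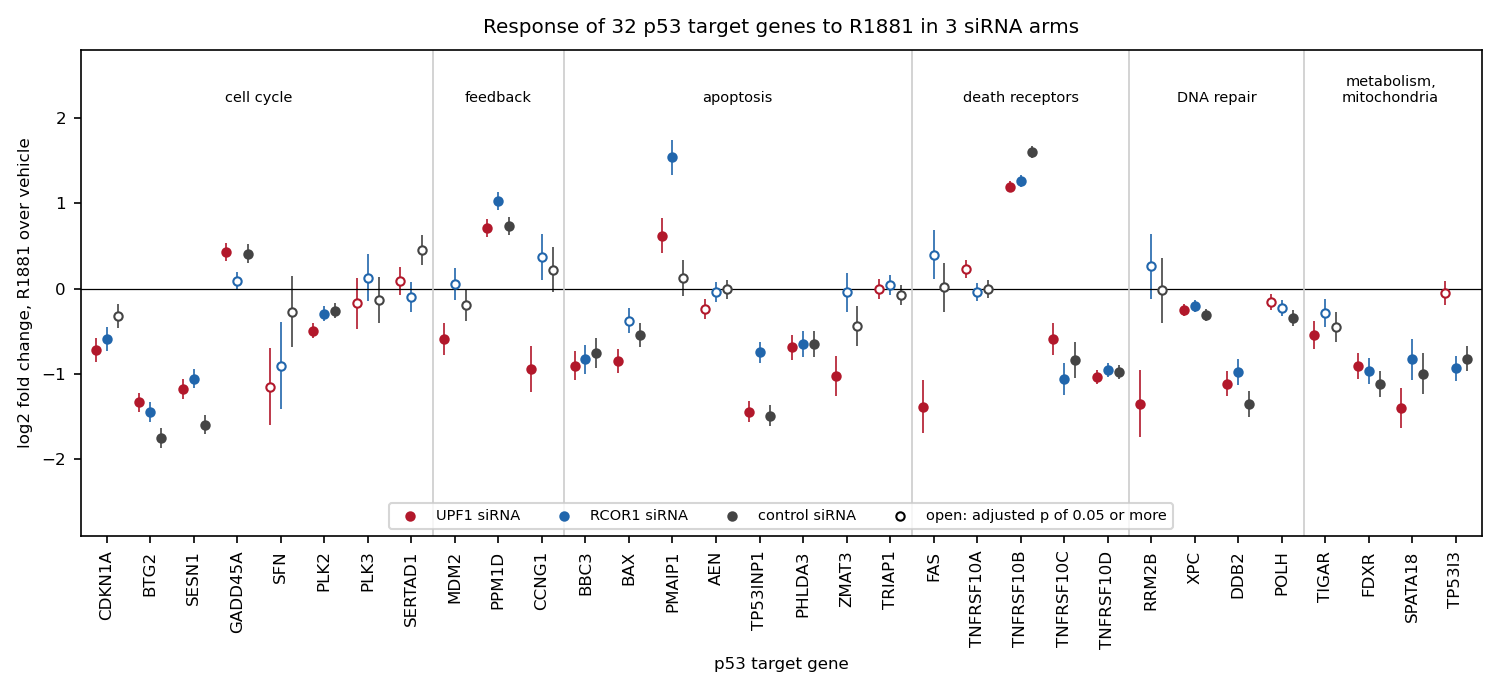
Log2 fold change of each of the 32 p53 target genes, R1881 over vehicle, with UPF1, RCOR1 and control siRNA (points; bars are 1 SE from edgeR, 3 libraries per group). Filled points have an adjusted p below 0.05. BTG2, SESN1, TP53INP1, DDB2, FDXR and others lie below 0 in all arms, while TNFRSF10B and PPM1D lie above 0 in all arms.

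Among the genes of cell cycle arrest and growth control, BTG2, an antiproliferative partner of the deadenylase complex (chr1:203305491-203309602, plus strand, GRCh38), moved most. BTG2 had 25.6, 26.7 and 24.4 CPM in R1881 against 72.5, 61.7 and 58.9 CPM in vehicle with UPF1 siRNA. It had 24.7, 23.9 and 23.9 CPM against 64.5, 69.97 and 63.4 CPM with RCOR1 siRNA, and 27.8, 20.7 and 20.2 CPM against 72.8, 79.6 and 79.3 CPM with control siRNA. All 9 R1881 libraries lay below all 9 vehicle libraries. The log2 fold changes were -1.33 ± 0.11 (adjusted p = 1.1e-07), -1.45 ± 0.11 (adjusted p = 5.3e-08) and -1.75 ± 0.11 (adjusted p = 4.2e-09) with UPF1, RCOR1 and control siRNA.

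SESN1, a leucine-binding restraint on mTORC1 (chr6:108986437-109094819, minus strand), followed the same direction. SESN1 had 46.98, 51.2 and 58.3 CPM in R1881 against 111, 114 and 129 CPM in vehicle with UPF1 siRNA. It had 66.8, 78.1 and 79.9 CPM against 157, 146 and 165 CPM with RCOR1 siRNA, and 40.4, 50.7 and 50.4 CPM against 146, 130 and 152 CPM with control siRNA. The R1881 libraries were again the low ones in each arm, and those with RCOR1 siRNA lay above those of the other arms. Its log2 fold changes were -1.18 ± 0.11 (adjusted p = 4.6e-07), -1.06 ± 0.11 (adjusted p = 1.9e-06) and -1.596 ± 0.11 (adjusted p = 1.3e-08).

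CDKN1A, which encodes the cyclin-dependent kinase inhibitor p21 (chr6:36676460-36687339, plus strand), had 408, 371 and 322 CPM in R1881 against 719, 608 and 483 CPM in vehicle with UPF1 siRNA. With RCOR1 siRNA CDKN1A had 311, 289 and 267 CPM against 443, 479 and 389 CPM, and with control siRNA 293, 230 and 225 CPM against 285, 335 and 315 CPM. The groups did not overlap with either targeting siRNA, whereas 1 control library in R1881 lay within the range of the vehicle libraries. CDKN1A fell with UPF1 siRNA, at a log2 fold change of -0.72 ± 0.14 (adjusted p = 0.00072), and with RCOR1 siRNA, at -0.60 ± 0.14 (adjusted p = 0.0039), and was not called with control siRNA, at -0.32 ± 0.14 (adjusted p = 0.083). These responses were not called as different between arms (interaction -0.39 ± 0.20 (adjusted p = 0.29) for UPF1 and -0.27 ± 0.20 (adjusted p = 0.72) for RCOR1).

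The other members of this role moved less. PLK2, a polo-like kinase, fell in all 3 arms, at -0.49 ± 0.090, -0.30 ± 0.088 and -0.26 ± 0.088 with UPF1, RCOR1 and control siRNA (adjusted p = 4e-04, 0.017 and 0.029). GADD45A, a stress sensor that binds PCNA, rose with UPF1 siRNA, at 0.43 ± 0.11 (adjusted p = 0.0041), and with control siRNA, at 0.41 ± 0.11 (adjusted p = 0.0069), and stood at 0.09 with RCOR1 siRNA. GADD45A stood at 0.34 without the low libraries with UPF1 siRNA (adjusted p = 0.18). SERTAD1, a regulator of CDK4, PLK3, a second polo-like kinase, and SFN, which sequesters cyclin B complexes, were called in no arm. SFN had wide errors, with -1.15 ± 0.45, -0.90 ± 0.51 and -0.27 ± 0.42 at levels between 0.570 and 2.90 CPM. Of the 8 genes, 4 were lower and 1 was higher with UPF1 siRNA, 4 and 0 with RCOR1 siRNA, and 3 and 1 with control siRNA, with medians of -0.60, -0.45 and -0.27. Of all genes, 20%, 14.9% and 17.6% were lower and 21.6%, 16.3% and 20.1% were higher in these arms.

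The feedback regulators split. PPM1D, the phosphatase that dephosphorylates p53, had 35.1, 36.8 and 33.8 CPM in R1881 against 20, 20.3 and 24.3 CPM in vehicle with UPF1 siRNA. PPM1D had 41.6, 47.4 and 42.6 CPM against 20.8, 20.7 and 23.1 CPM with RCOR1 siRNA, and 36.6, 39.5 and 41.7 CPM against 25.6, 20.2 and 25.2 CPM with control siRNA. All 9 R1881 libraries were higher than all 9 vehicle libraries. PPM1D rose by log2 fold changes of 0.71 ± 0.11 (adjusted p = 5.8e-05), 1.03 ± 0.11 (adjusted p = 1.5e-06) and 0.73 ± 0.11 (adjusted p = 3.9e-05). MDM2, the ubiquitin ligase of p53 and a transcript that p53 itself drives, stood at 0.05 ± 0.18 with RCOR1 siRNA and -0.20 ± 0.18 with control siRNA, neither of which was called. With UPF1 siRNA MDM2 was lower, at -0.59 ± 0.18 (adjusted p = 0.018), and without the low libraries it stood at -0.46 (adjusted p = 0.29). CCNG1, a cyclin that recruits a phosphatase to MDM2, likewise was called with UPF1 siRNA alone, at -0.94 ± 0.27 (adjusted p = 0.011), and stood at -0.37 without those libraries (adjusted p = 0.45).

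Among the genes of apoptosis, 8 in number, 5 were lower and 1 was higher in the UPF1 arm, 3 and 1 in the RCOR1 arm, and 4 and 0 in the control arm, with medians of -0.77, -0.21 and -0.49. Of all genes, 20%, 14.9% and 17.6% were lower and 21.6%, 16.3% and 20.1% were higher in these arms. By these calls, growth arrest and apoptosis members both fell more often than they rose in each arm, and neither role was all in one direction. With 8 genes in each role the counts are small. The difference between the roles was not tested.

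TP53INP1, a p53 cofactor that promotes cell death and autophagy (chr8:94925972-94949411, minus strand), had 120, 126 and 142 CPM in R1881 against 313, 357 and 386 CPM in vehicle with UPF1 siRNA. TP53INP1 had 136, 158 and 152 CPM against 264, 214 and 271 CPM with RCOR1 siRNA, and 156, 188 and 192 CPM against 530, 428 and 549 CPM with control siRNA. The R1881 libraries were low in each arm, and the vehicle libraries with control siRNA were the highest of all. TP53INP1 fell, with log2 fold changes of -1.44 ± 0.12 (adjusted p = 1.3e-07), -0.75 ± 0.12 (adjusted p = 0.00018) and -1.49 ± 0.12 (adjusted p = 8.9e-08). Its response with RCOR1 siRNA was the smaller one, by an interaction of 0.74 ± 0.17 (adjusted p = 0.057), which missed the threshold.

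The BH3-only gene BBC3, which encodes PUMA, fell in all arms, at -0.91 ± 0.17 (adjusted p = 0.00051), -0.83 ± 0.17 (adjusted p = 0.0014) and -0.75 ± 0.17 (adjusted p = 0.0026), from low levels of 2.78 to 6.91 CPM. BAX, the pore-forming effector that such proteins unleash, fell with UPF1 siRNA, at -0.85 ± 0.14 (adjusted p = 0.00018), and with control siRNA, at -0.54 ± 0.14 (adjusted p = 0.0063), and stood at -0.38 ± 0.14 (adjusted p = 0.057) with RCOR1 siRNA. PHLDA3, a repressor of the survival kinase AKT, fell by nearly the same amount in each arm, at -0.69 ± 0.15 (adjusted p = 0.0018), -0.65 ± 0.15 (adjusted p = 0.0041) and -0.65 ± 0.16 (adjusted p = 0.0035). ZMAT3, an RNA-binding regulator of splicing, was lower with UPF1 siRNA, at -1.02 ± 0.23 (adjusted p = 0.0025), and not called in the other arms, at -0.04 ± 0.23 and -0.44 ± 0.23. ZMAT3 had 34.8, 44.9 and 56.2 CPM in R1881 against 83.4, 96 and 95.99 CPM in vehicle with UPF1 siRNA, 41.9, 55.6 and 54.4 CPM against 48.2, 43.2 and 65.4 CPM with RCOR1 siRNA, and 33.1, 55.3 and 53.7 CPM against 75.4, 45.2 and 71.7 CPM with control siRNA. Without the low libraries, in which ZMAT3 had its lowest levels of that group, the value was -0.74 (adjusted p = 0.14). AEN, an apoptosis-enhancing nuclease, and TRIAP1, a mitochondrial inhibitor of apoptosis, were called in no arm and lay between -0.24 and 0.04.

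PMAIP1, which encodes the BH3-only protein NOXA (chr18:59899948-59904306, plus strand), differed from the rest of its role. PMAIP1 had 10.6, 13.7 and 13.95 CPM in R1881 against 9.02, 6.48 and 9.31 CPM in vehicle with UPF1 siRNA. It had 15.3, 20.7 and 21.9 CPM against 7.29, 6.005 and 6.59 CPM with RCOR1 siRNA, and 6.13, 10.9 and 7.95 CPM against 9.01, 7.005 and 6.88 CPM with control siRNA. With RCOR1 siRNA every R1881 library was far above every vehicle library, while the control groups overlapped. PMAIP1 rose with RCOR1 siRNA by 1.54 ± 0.21 (adjusted p = 2.8e-05), and with UPF1 siRNA by 0.62 ± 0.21 (adjusted p = 0.025), and stood at 0.12 ± 0.21 (adjusted p = 0.7) with control siRNA. The difference in response between RCOR1 and control siRNA was 1.42 ± 0.30 (edgeR adjusted p = 0.038), 1 of 35 genes with a higher interaction (0.227% of all genes) and 1 of 118 with any (0.767%). It was the only member so called, and 0.539% of all genes had a lower interaction. The value ranged from 1.26 to 1.68 when any 1 library was left out. It stayed called only without control vehicle replicate 2 (1.48, adjusted p = 0.045), RCOR1 R1881 replicate 1 (1.57, adjusted p = 0.026) or control R1881 replicate 2 (1.68, adjusted p = 0.017). The call was lost without any of the other 9 libraries, at adjusted p up to 0.12, and with only the 4 groups compared in the fit (1.44, adjusted p = 0.071). The rise with UPF1 siRNA was not called without UPF1 vehicle replicate 2, UPF1 R1881 replicate 2 or UPF1 R1881 replicate 3 (0.47 to 0.74 over the libraries left out, adjusted p up to 0.11), and stood at 0.72 without both low libraries (adjusted p = 0.1).

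TNFRSF10B, the receptor DR5 for the death ligand TRAIL (chr8:23020133-23069179, minus strand), rose more than any other receptor in each arm, and more than any other member with UPF1 and control siRNA. With RCOR1 siRNA PMAIP1 rose more. TNFRSF10B had 452, 460 and 432 CPM in R1881 against 199, 198 and 190 CPM in vehicle with UPF1 siRNA. It had 380, 344 and 351 CPM against 160, 146 and 143 CPM with RCOR1 siRNA, and 512, 480 and 477 CPM against 154, 176 and 154 CPM with control siRNA. All R1881 libraries lay far above all vehicle libraries, those with RCOR1 siRNA lowest among them. The log2 fold changes were 1.20 ± 0.070 (adjusted p = 1.5e-09), 1.26 ± 0.070 (adjusted p = 9e-10) and 1.603 ± 0.071 (adjusted p = 4.3e-11). The response with UPF1 siRNA was smaller than with control siRNA, at an interaction of -0.41 ± 0.098 (adjusted p = 0.038), the only member called among the UPF1 interactions, where 1.37% of all genes were lower, 1.35% were higher and 2.72% were called. It stayed called without control vehicle replicate 2 (-0.47, adjusted p = 0.025) and was lost without any of the other 11 libraries of these groups (-0.43 to -0.30, adjusted p = 0.051 to 0.16). Without both low libraries it was -0.45 (adjusted p = 0.25). The call was also lost with only the 4 groups compared in the fit (-0.34, adjusted p = 0.16), with other scalings or no low-count filter (adjusted p = 0.097 to 0.26) and with DESeq2 (adjusted p = 0.062). The corresponding difference with RCOR1 siRNA was -0.34 ± 0.098 (adjusted p = 0.15). Both interactions use the same control libraries.

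The decoy receptors of TRAIL moved the other way. TNFRSF10D, a decoy with a truncated death domain, had 16.6, 15.5 and 17.2 CPM in R1881 against 32.2, 32.5 and 36.2 CPM in vehicle with UPF1 siRNA. TNFRSF10D had 21.5, 21.1 and 23.9 CPM against 42.6, 43.6 and 42.6 CPM with RCOR1 siRNA, and 26.2, 26.8 and 23.7 CPM against 49.5, 48.8 and 52.6 CPM with control siRNA. R1881 libraries were the low ones in each arm and the replicates lay close together. TNFRSF10D fell, at -1.03 ± 0.081 (adjusted p = 5.1e-08), -0.95 ± 0.080 (adjusted p = 1.5e-07) and -0.98 ± 0.080 (adjusted p = 7.7e-08). TNFRSF10C, the anchored decoy that lacks a death domain, had 4.12, 3.01 and 3.32 CPM in R1881 against 4.80, 6.005 and 5.05 CPM in vehicle with UPF1 siRNA. TNFRSF10C had 2.71, 3.24 and 3.91 CPM against 6.23, 7.26 and 7.07 CPM with RCOR1 siRNA, and 2.67, 2.19 and 1.36 CPM against 3.91, 3.95 and 3.39 CPM with control siRNA. TNFRSF10C was low in R1881 in each arm, with log2 fold changes of -0.59 ± 0.19 (adjusted p = 0.021), -1.06 ± 0.19 (adjusted p = 0.00044) and -0.84 ± 0.21 (adjusted p = 0.0051). The fall with UPF1 siRNA was -0.70 without both low libraries (adjusted p = 0.12), and without UPF1 vehicle replicate 2, UPF1 R1881 replicate 2 or UPF1 R1881 replicate 3 its adjusted p was up to 0.094. TNFRSF10A, the other TRAIL receptor with a full death domain, was called in no arm, at 0.23 ± 0.11, -0.04 ± 0.11 and -0.01 ± 0.11. These receptor genes lie side by side on chromosome 8 and resemble each other in sequence, and no source used here says how reads that match several of them were counted. Of the exonic length of TNFRSF10C, 26% is also shared with another gene on the same strand.

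FAS, the receptor of the death ligand FASL, had 1.74, 3.43 and 4.34 CPM in R1881 against 5.59, 8.45 and 10.2 CPM in vehicle with UPF1 siRNA. FAS had 6.53, 9.12 and 9.93 CPM against 6.42, 5.38 and 7.63 CPM with RCOR1 siRNA, and 5.55, 8.18 and 9.49 CPM against 8.55, 6.03 and 8.34 CPM with control siRNA. Levels were low, and the R1881 libraries with UPF1 siRNA were the lowest of all. FAS was lower with UPF1 siRNA, at -1.38 ± 0.31 (adjusted p = 0.0021), and not called with RCOR1 siRNA, at 0.40 ± 0.29, or control siRNA, at 0.01 ± 0.29. FAS stood at -0.92 without the low libraries with UPF1 siRNA (adjusted p = 0.12).

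Of the genes of DNA repair, DDB2 and XPC, which recognise ultraviolet lesions in nucleotide excision repair, fell in all arms. DDB2 had 13.8, 12.5 and 13.4 CPM in R1881 against 29.6, 28.9 and 27.6 CPM in vehicle with UPF1 siRNA. DDB2 had 11.7, 9.56 and 10.2 CPM against 19.3, 24.2 and 18.6 CPM with RCOR1 siRNA, and 8.002, 9.43 and 8.67 CPM against 18.6, 28.3 and 19.9 CPM with control siRNA. The groups did not overlap in any arm. DDB2 fell, at -1.12 ± 0.15 (adjusted p = 1.6e-05), -0.98 ± 0.15 (adjusted p = 9.3e-05) and -1.36 ± 0.15 (adjusted p = 2.6e-06). XPC fell less, at -0.25 ± 0.073 (adjusted p = 0.012), -0.20 ± 0.073 (adjusted p = 0.045) and -0.31 ± 0.073 (adjusted p = 0.0029), and without the low libraries it stood at -0.35 with UPF1 siRNA (adjusted p = 0.058). Of the exonic length of XPC, 23.8% is shared with an antisense gene. POLH, the polymerase that reads across ultraviolet lesions, was lower with control siRNA, at -0.35 ± 0.093 (adjusted p = 0.0076), and not called at -0.16 ± 0.092 and -0.23 ± 0.093 with UPF1 and RCOR1 siRNA.

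RRM2B, a ribonucleotide reductase subunit that supplies nucleotides for repair, had 23.1, 27.6 and 58.95 CPM in R1881 against 62.1, 101 and 115 CPM in vehicle with UPF1 siRNA. RRM2B had 112, 180 and 185 CPM against 101, 115 and 181 CPM with RCOR1 siRNA, and 59.4, 126 and 132 CPM against 134, 71.99 and 114 CPM with control siRNA. Replicates spread widely in every group, and UPF1 R1881 replicates 1 and 2 were the lowest of all 18 libraries. The call with UPF1 siRNA, -1.35 ± 0.39 (adjusted p = 0.012), was absent without UPF1 R1881 replicate 1 or replicate 2 (adjusted p up to 0.06), and without both the value was -0.68 (adjusted p = 0.4). RRM2B stood at 0.26 ± 0.38 and -0.02 ± 0.38 with RCOR1 and control siRNA.

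Of the 4 genes of metabolism and mitochondria, 3 fell in each arm, where 20%, 14.9% and 17.6% of all genes fell with UPF1, RCOR1 and control siRNA. FDXR, the ferredoxin reductase of mitochondrial iron-sulfur and steroid synthesis, had 13.4, 15.9 and 10.97 CPM in R1881 against 28.6, 23.9 and 23.2 CPM in vehicle with UPF1 siRNA. FDXR had 12.5, 11.5 and 12.6 CPM against 24.05, 28.2 and 19.3 CPM with RCOR1 siRNA, and 13.05, 11.6 and 10.5 CPM against 23.8, 27.9 and 24.7 CPM with control siRNA. No R1881 library reached a vehicle library. FDXR fell, at -0.91 ± 0.15 (adjusted p = 0.00016), -0.97 ± 0.15 (adjusted p = 0.00012) and -1.12 ± 0.15 (adjusted p = 2.2e-05).

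SPATA18, which takes part in the quality control of mitochondria, had 3.72, 6.16 and 5.44 CPM in R1881 against 12.8, 14.5 and 12.99 CPM in vehicle with UPF1 siRNA. SPATA18 had 5.57, 5.79 and 3.26 CPM against 8.41, 6.84 and 10.8 CPM with RCOR1 siRNA, and 4.32, 7.24 and 4.97 CPM against 10.9, 9.99 and 12.3 CPM with control siRNA. The groups stood apart in each arm, most widely with UPF1 siRNA. SPATA18 fell, at -1.40 ± 0.24 (adjusted p = 0.00019), -0.83 ± 0.24 (adjusted p = 0.016) and -0.996 ± 0.24 (adjusted p = 0.0033), and the fall with RCOR1 siRNA was not called without RCOR1 vehicle replicate 3 or RCOR1 R1881 replicate 3 (adjusted p up to 0.085). TP53I3, a quinone oxidoreductase, fell with RCOR1 siRNA, at -0.94 ± 0.15 (adjusted p = 0.00013), and with control siRNA, at -0.82 ± 0.15 (adjusted p = 0.00033), and stood at -0.05 ± 0.14 (adjusted p = 0.81) with UPF1 siRNA. The interaction of TP53I3 with UPF1 siRNA was 0.77 ± 0.20 (adjusted p = 0.054). TIGAR, which lowers glycolytic flux, was called with UPF1 siRNA alone, at -0.54 ± 0.17 (adjusted p = 0.016), and stood at -0.29 ± 0.17 and -0.45 ± 0.17 in the other arms. TIGAR stood at -0.31 without the low libraries (adjusted p = 0.43), and 42.6% of its exonic length is shared with another gene on the same strand.

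**Figure D2:**
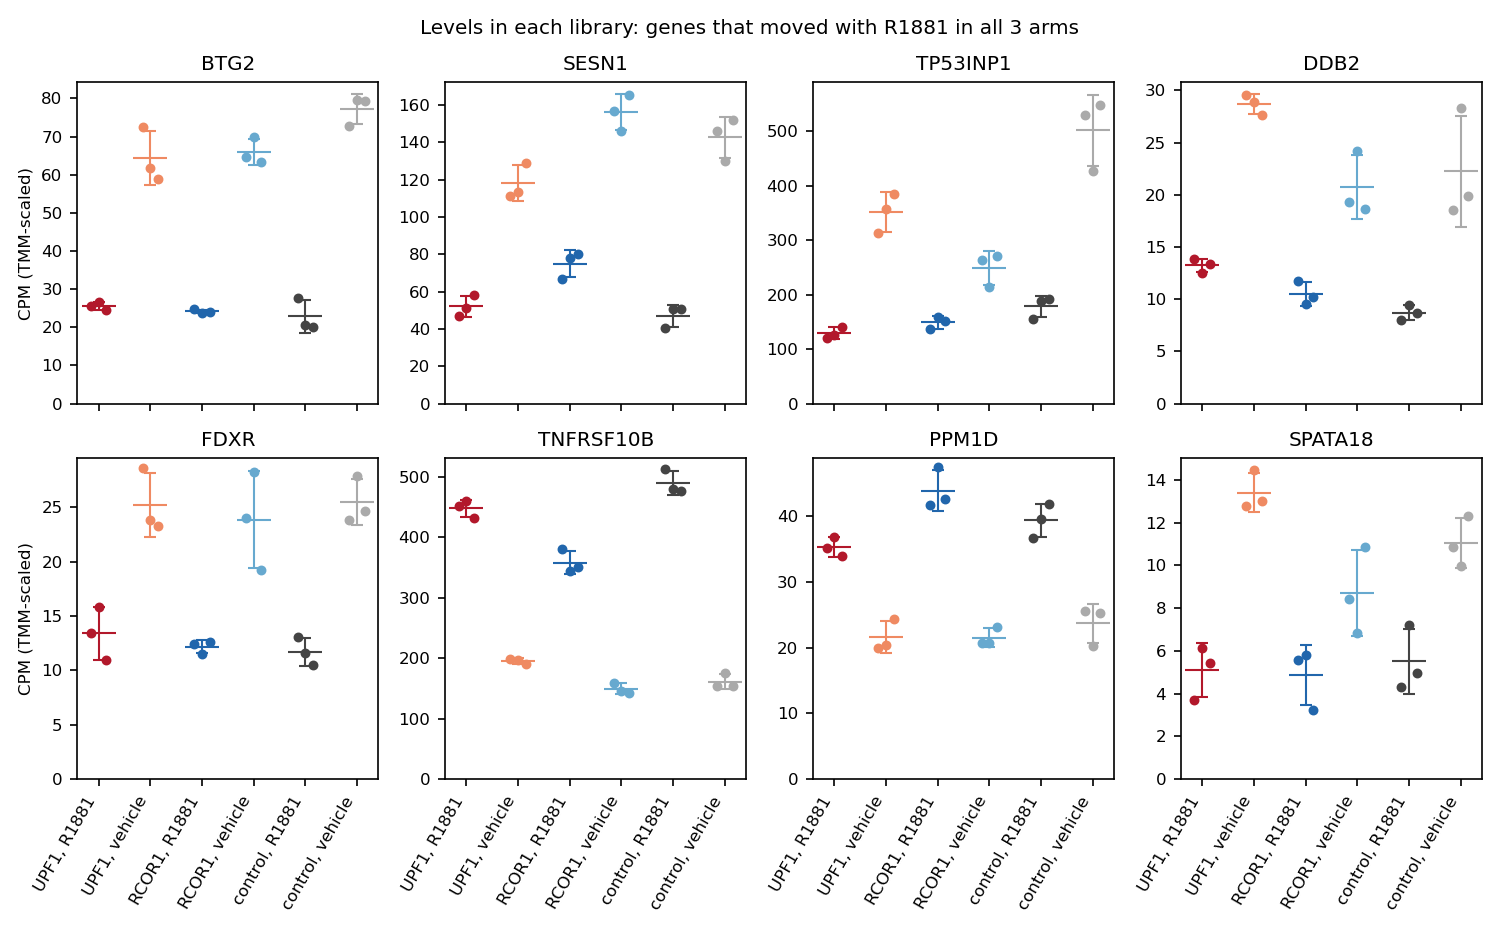
Level in each library (CPM, points; line and bar are mean and SD, n = 3) of 8 p53 target genes that moved with R1881 in all 3 siRNA arms. Within each siRNA, R1881 stands left of vehicle. The R1881 libraries are low for BTG2, SESN1, TP53INP1, DDB2, FDXR and SPATA18 and high for TNFRSF10B and PPM1D.

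Some of the smaller calls rested on single libraries. With control siRNA the rise of GADD45A was lost without R1881 replicate 1 (adjusted p = 0.1), the fall of POLH without R1881 replicate 3 (adjusted p = 0.052), and that of PLK2 without R1881 replicate 3, vehicle replicate 1 or vehicle replicate 2 (-0.37 to -0.24, adjusted p up to 0.079). With RCOR1 siRNA the fall of PLK2 was lost without R1881 replicate 1, R1881 replicate 3 or vehicle replicate 3 (-0.34 to -0.25, adjusted p up to 0.07), and that of XPC without any library but vehicle replicate 3 (-0.24 to -0.17, adjusted p up to 0.15). With UPF1 siRNA the falls of MDM2, TIGAR and CCNG1 were lost without R1881 replicate 1, R1881 replicate 2 or vehicle replicate 3 (adjusted p up to 0.073, 0.075 and 0.063), and that of XPC without R1881 replicate 3 or vehicle replicate 1 (adjusted p up to 0.069). Calls that held with each library left out numbered 17 of 24 with UPF1 siRNA, 14 of 17 with RCOR1 siRNA and 15 of 18 with control siRNA. The share of calls that held over all genes was not computed, so these counts were not set against other genes.

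Of the 6 members called lower with R1881 in the UPF1 arm alone, RRM2B, CCNG1, FAS and ZMAT3 have a GC content below 40%. MDM2 and TIGAR stand at 41.9% and 44.2%, above this limit but below the median of 48.1% over the genes tested. Of the 32 members, 6 have a GC content below 40% in their longest transcript: RRM2B (36.4%), PMAIP1 (37.2%), CCNG1 (38.2%), FAS (39.1%), ZMAT3 (39.5%) and TP53INP1 (39.6%). In R1881 set against vehicle, 5 of these 6 were lower and 1 was higher with UPF1 siRNA, 1 was lower and 1 higher with RCOR1 siRNA, and 1 was lower and 0 were higher with control siRNA. Their median was -1.19, 0.32 and 0.00, while that of the other 26 members was -0.57, -0.34 and -0.33. Over all genes tested with a GC content below 40%, 35.4%, 5.11% and 9.9% were lower with UPF1, RCOR1 and control siRNA. Of the genes at or above 40%, 17.1%, 16.8% and 19.1% were. The medians were -0.51, 0.22 and 0.08 below 40%, and 0.06, -0.01 and 0.01 at or above it. In the RCOR1 interaction the 6 members lay between 0.15 and 1.42, with PMAIP1 the highest. Their median there was 0.39, against 0.07 over the other 26 members. The part of GC content in the PMAIP1 interaction was not tested. The part that this shift in the 2 low libraries had in the calls of single members was not tested beyond leaving the libraries out.

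**Figure D3:**
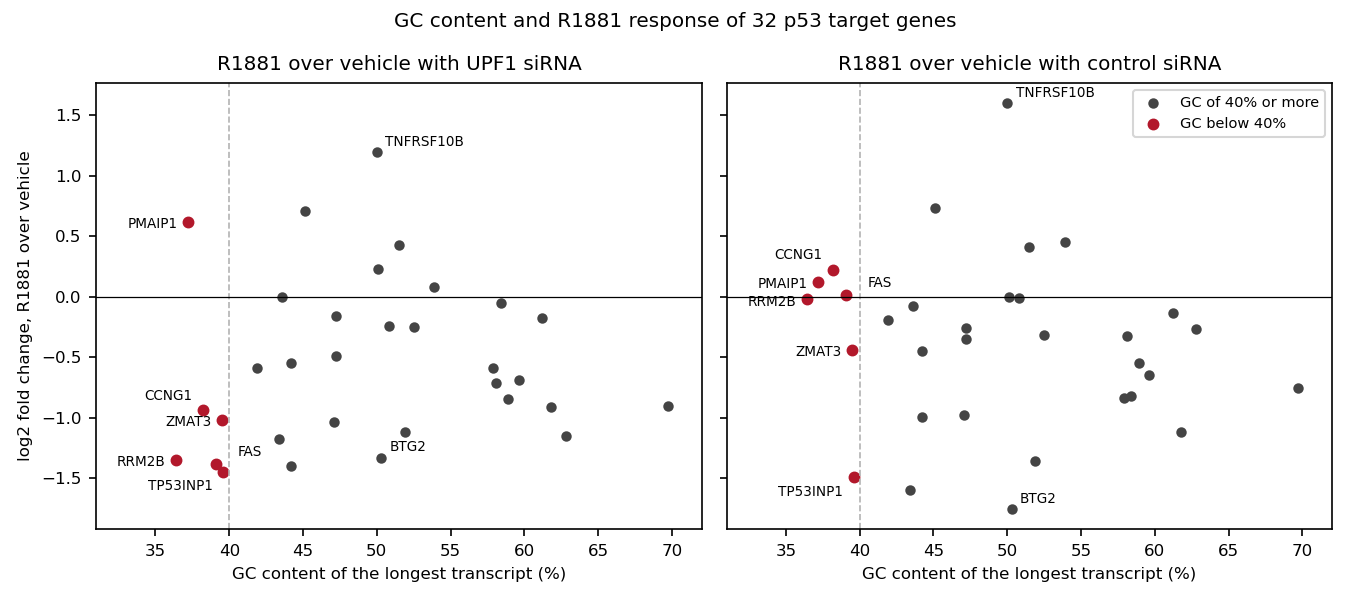
GC content of the longest transcript (%) against the log2 fold change, R1881 over vehicle, of the 32 p53 target genes with UPF1 siRNA (left) and control siRNA (right). Genes below 40% GC (red) lie low with UPF1 siRNA, except PMAIP1, and near 0 with control siRNA, except ZMAT3 and TP53INP1.

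A search of promoter sequence shows which members carry a match to the p53 response element close to their start. RefSeq promoters (GRCh38.p14, 250 bases before to 50 bases after the start) were matched to 24 of the 32 members. The element was searched by its consensus of 2 decamers side by side, 20 bases in all, with the 4 core positions kept and up to 3 mismatches elsewhere. The consensus reads the same on both strands. It was found in 3 of 24 members (12.5%), PMAIP1, FDXR and AEN, and in 392 of 35116 promoters (1.12%). Each member was counted by 1 promoter entry, the first listed, while the 35116 entries were not reduced to 1 per gene or to the genes tested. The percentages thus differ in unit. Sites outside this window were not searched. The match began 185, 21 and 34 bases before the start, with 3, 3 and 2 mismatches. The 250 bases before the start are printed here for these genes because they include a strong responder to R1881 in all arms, a gene that responded most with RCOR1 siRNA, and a gene called in no arm; capitals mark the match. They lie at chr18:59899746-59899995 (plus strand) for PMAIP1, chr17:74872995-74873244 (minus strand) for FDXR and chr15:88621090-88621339 (plus strand) for AEN.
PMAIP1: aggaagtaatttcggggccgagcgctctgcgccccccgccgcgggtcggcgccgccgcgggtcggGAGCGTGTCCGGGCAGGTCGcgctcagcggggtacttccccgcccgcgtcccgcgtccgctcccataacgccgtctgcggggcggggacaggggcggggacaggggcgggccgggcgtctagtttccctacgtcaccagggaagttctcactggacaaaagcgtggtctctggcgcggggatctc
FDXR: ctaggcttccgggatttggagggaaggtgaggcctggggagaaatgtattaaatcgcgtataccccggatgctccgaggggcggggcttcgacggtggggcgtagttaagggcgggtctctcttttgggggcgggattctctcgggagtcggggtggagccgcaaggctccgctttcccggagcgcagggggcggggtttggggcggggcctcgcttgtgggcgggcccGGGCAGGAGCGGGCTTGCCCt
AEN: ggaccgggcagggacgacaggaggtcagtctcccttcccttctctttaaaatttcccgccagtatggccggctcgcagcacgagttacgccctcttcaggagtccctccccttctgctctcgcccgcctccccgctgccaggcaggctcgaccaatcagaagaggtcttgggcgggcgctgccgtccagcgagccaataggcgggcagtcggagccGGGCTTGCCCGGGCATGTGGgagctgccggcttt
A match is a description of the letters and says nothing of binding in these cells. The 3 genes with a match responded to R1881 in 3 ways: FDXR fell in all arms, PMAIP1 rose with the targeting siRNAs, and AEN was called in none.

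UPF1 siRNA in vehicle shows what this pool did to the p53 targets without androgen. PHLDA3, SERTAD1, CDKN1A, GADD45A and TNFRSF10B rose, and TNFRSF10D, TP53INP1, PLK2 and TRIAP1 fell. These 5 higher and 4 lower members are 28.1% of the 32, where 18.5% of all genes were higher, 16% were lower and 34.6% were called, so the share was not above that of all genes. The medians were 0.12 over the members and 0.03 over all genes. In R1881, 9 members were higher and 6 lower with UPF1 siRNA than with control siRNA (46.9% in all), where 17.6% of all genes were higher, 15.7% were lower and 33.3% were called. Most of these calls were lost without the low libraries, with 1 library in the group. PHLDA3, PLK2 and TNFRSF10D, which kept theirs, then stood at 1.11, -0.65 and -0.63, and values for the others are given below. The share of all genes called in that fit was not computed, so the loss was not set against other genes.

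PHLDA3 (chr1:201464383-201469237, minus strand) was the member that rose most with UPF1 siRNA. In R1881 PHLDA3 had 89.1, 75.7 and 74.1 CPM with UPF1 siRNA against 38.9, 30.7 and 29.6 CPM with control siRNA. In vehicle PHLDA3 had 154, 127 and 105 CPM against 48.2, 59.9 and 47.3 CPM. With RCOR1 siRNA PHLDA3 had 45.02, 44.1 and 38.1 CPM in R1881 and 63.6, 77.4 and 58.4 CPM in vehicle. The libraries with UPF1 siRNA lay above all control libraries of the same treatment. The log2 fold change was 1.27 ± 0.16 (adjusted p = 2e-05) in R1881 and 1.31 ± 0.16 (adjusted p = 8.5e-06) in vehicle, and 1.11 in R1881 without the low libraries (adjusted p = 0.0043). Of its exonic length, 19.1% is shared with a noncoding gene on the same strand.

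SERTAD1 had 18.99, 19.4 and 18.4 CPM with UPF1 siRNA against 12.8, 10.9 and 12.6 CPM with control siRNA in R1881. In vehicle SERTAD1 had 19.9, 17.6 and 16.02 CPM against 7.75, 9.92 and 8.80 CPM, and with RCOR1 siRNA it had 11.7, 10.9 and 7.98 CPM in R1881 and 11.03, 13.6 and 8.11 CPM in vehicle. The UPF1 libraries were the 6 highest of the 18. SERTAD1 rose by 0.65 ± 0.17 (adjusted p = 0.0079) in R1881 and 1.02 ± 0.17 (adjusted p = 0.00025) in vehicle, and without the low libraries the R1881 value was 0.55 (adjusted p = 0.19).

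CDKN1A, whose values per library are given above, was higher with UPF1 than with control siRNA by 0.56 ± 0.14 (adjusted p = 0.0065) in R1881 and 0.95 ± 0.14 (adjusted p = 7.6e-05) in vehicle. The R1881 value was 0.31 without the low libraries (adjusted p = 0.37) and was not called without control R1881 replicate 3 (adjusted p = 0.076). GADD45A rose by 0.46 ± 0.11 (adjusted p = 0.0037) and 0.44 ± 0.11 (adjusted p = 0.0049), and stood at 0.35 in R1881 without the low libraries (adjusted p = 0.21). TNFRSF10D fell, at -0.64 ± 0.082 (adjusted p = 2.8e-05) and -0.58 ± 0.079 (adjusted p = 3.3e-05), and PLK2 fell, at -0.68 ± 0.090 (adjusted p = 3.7e-05) and -0.45 ± 0.088 (adjusted p = 0.00088). Both kept their calls without the low libraries, at -0.63 and -0.65 in R1881 (adjusted p = 0.0061 and 0.0073). TP53INP1 fell, at -0.47 ± 0.12 (adjusted p = 0.0081) and -0.51 ± 0.12 (adjusted p = 0.0036), and stood at -0.39 in R1881 without the low libraries (adjusted p = 0.18).

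Other members were called in 1 treatment only with UPF1 siRNA. In vehicle, TNFRSF10B rose by 0.28 ± 0.069 (adjusted p = 0.0053), and stood at -0.13 ± 0.069 in R1881. TRIAP1 fell in vehicle, at -0.35 ± 0.12 (adjusted p = 0.027), a call that was lost without UPF1 vehicle replicate 1 or 2 or control vehicle replicate 2 or 3 (-0.50 to -0.23, adjusted p up to 0.14). In R1881, TP53I3 rose by 0.90 ± 0.15 (adjusted p = 0.00025), DDB2 by 0.60 ± 0.15 (adjusted p = 0.0067), TNFRSF10C by 0.74 ± 0.21 (adjusted p = 0.015), PMAIP1 by 0.61 ± 0.21 (adjusted p = 0.033) and XPC by 0.24 ± 0.073 (adjusted p = 0.021). RRM2B fell, at -1.54 ± 0.39 (adjusted p = 0.0072), as did FAS, at -1.32 ± 0.31 (adjusted p = 0.0045), and CCNG1, at -0.98 ± 0.27 (adjusted p = 0.012). All 8 lost their call without the low libraries: TP53I3 stood at 0.66 (adjusted p = 0.052), DDB2 at 0.56 (0.13), TNFRSF10C at 0.60 (0.24), PMAIP1 at 0.69 (0.14), XPC at 0.11 (0.61), RRM2B at -0.89 (0.29), FAS at -0.88 (0.17) and CCNG1 at -0.44 (0.38). With single libraries left out, adjusted p reached 0.12 for PMAIP1 (without control R1881 replicate 1 or 3 or UPF1 R1881 replicate 2 or 3), 0.093 for TNFRSF10C (without UPF1 R1881 replicate 1 or control R1881 replicate 3), 0.06 for CCNG1 (without UPF1 R1881 replicate 1 or 2) and 0.19 for XPC (without control R1881 replicate 2 or 3 or UPF1 R1881 replicate 1 or 2). Except for TNFRSF10B, no difference between the treatments was called for these genes.

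**Figure D4:**
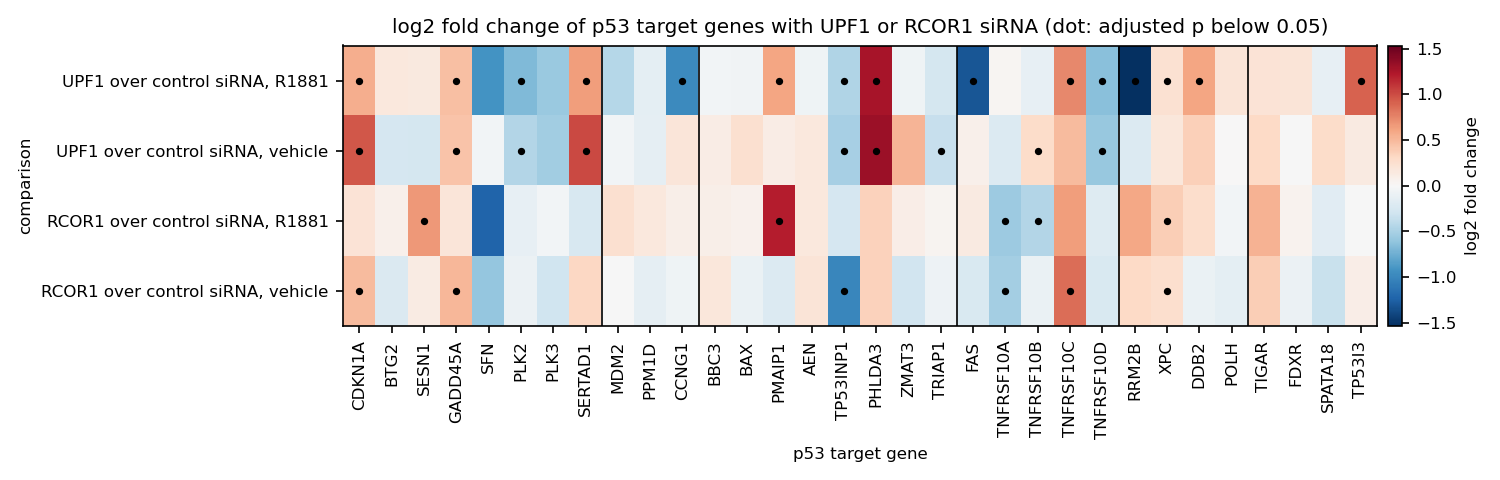
Log2 fold change (colour) of the 32 p53 target genes for UPF1 or RCOR1 siRNA over control siRNA, in R1881 and in vehicle (rows); a dot marks an adjusted p below 0.05 and vertical lines separate the roles. PHLDA3, CDKN1A, SERTAD1 and GADD45A are higher with UPF1 siRNA in both treatments, and PMAIP1 is higher with RCOR1 siRNA in R1881.

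With RCOR1 siRNA, fewer p53 targets passed the test than with UPF1 siRNA, as did fewer of all genes. In R1881, PMAIP1, SESN1 and XPC were higher and TNFRSF10A and TNFRSF10B were lower than with control siRNA. This makes 5 of 32 (15.6%), where 5.06% of all genes were higher, 7.33% were lower and 12.4% were called. In vehicle, TNFRSF10C, GADD45A, CDKN1A and XPC were higher and TP53INP1 and TNFRSF10A were lower, or 6 of 32 (18.8%), where 5.31% of all genes were higher, 6.21% were lower and 11.5% were called. The medians of the members were 0.09 and -0.09, against -0.01 and -0.01 over all genes.

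Of the members called with RCOR1 siRNA in R1881, PMAIP1 moved most, by 1.21 ± 0.20 (adjusted p = 0.0011), and was at -0.21 ± 0.22 (adjusted p = 0.63) in vehicle. SFN, at low counts, stood at -1.23 ± 0.50 (adjusted p = 0.13) in R1881. SESN1 rose in R1881 by 0.67 ± 0.11 (adjusted p = 0.001) and stood at 0.13 ± 0.11 (adjusted p = 0.53) in vehicle. TNFRSF10B fell in R1881, at -0.45 ± 0.069 (adjusted p = 5e-04) and stood at -0.11 ± 0.069 (adjusted p = 0.39) in vehicle. TNFRSF10A had 21.3, 20.5 and 17.9 CPM with RCOR1 siRNA against 30.1, 26.2 and 31.4 CPM with control siRNA in R1881, and 19.9, 22.8 and 18.6 CPM against 26.04, 32.3 and 29.7 CPM in vehicle. Its groups did not overlap in either treatment, and it fell, at -0.55 ± 0.11 (adjusted p = 0.0029) and -0.52 ± 0.11 (adjusted p = 0.0047). XPC rose by 0.37 ± 0.073 (adjusted p = 0.0031) in R1881 and 0.26 ± 0.073 (adjusted p = 0.028) in vehicle.

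In vehicle, TP53INP1 fell, at -1.01 ± 0.12 (adjusted p = 7.8e-05) and stood at -0.26 ± 0.12 (adjusted p = 0.19) in R1881. TNFRSF10C rose in vehicle by 0.86 ± 0.19 (adjusted p = 0.0068), GADD45A by 0.50 ± 0.11 (adjusted p = 0.0064) and CDKN1A by 0.48 ± 0.14 (adjusted p = 0.034). In R1881 these stood at 0.64 ± 0.22, 0.19 ± 0.11 and 0.21 ± 0.14, and were not called. The vehicle calls of CDKN1A (0.41 to 0.56) and XPC (0.23 to 0.30) were lost without RCOR1 vehicle replicate 1 or 2 or control vehicle replicate 1 or 3, at adjusted p up to 0.14 and 0.12.

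**Figure D5:**
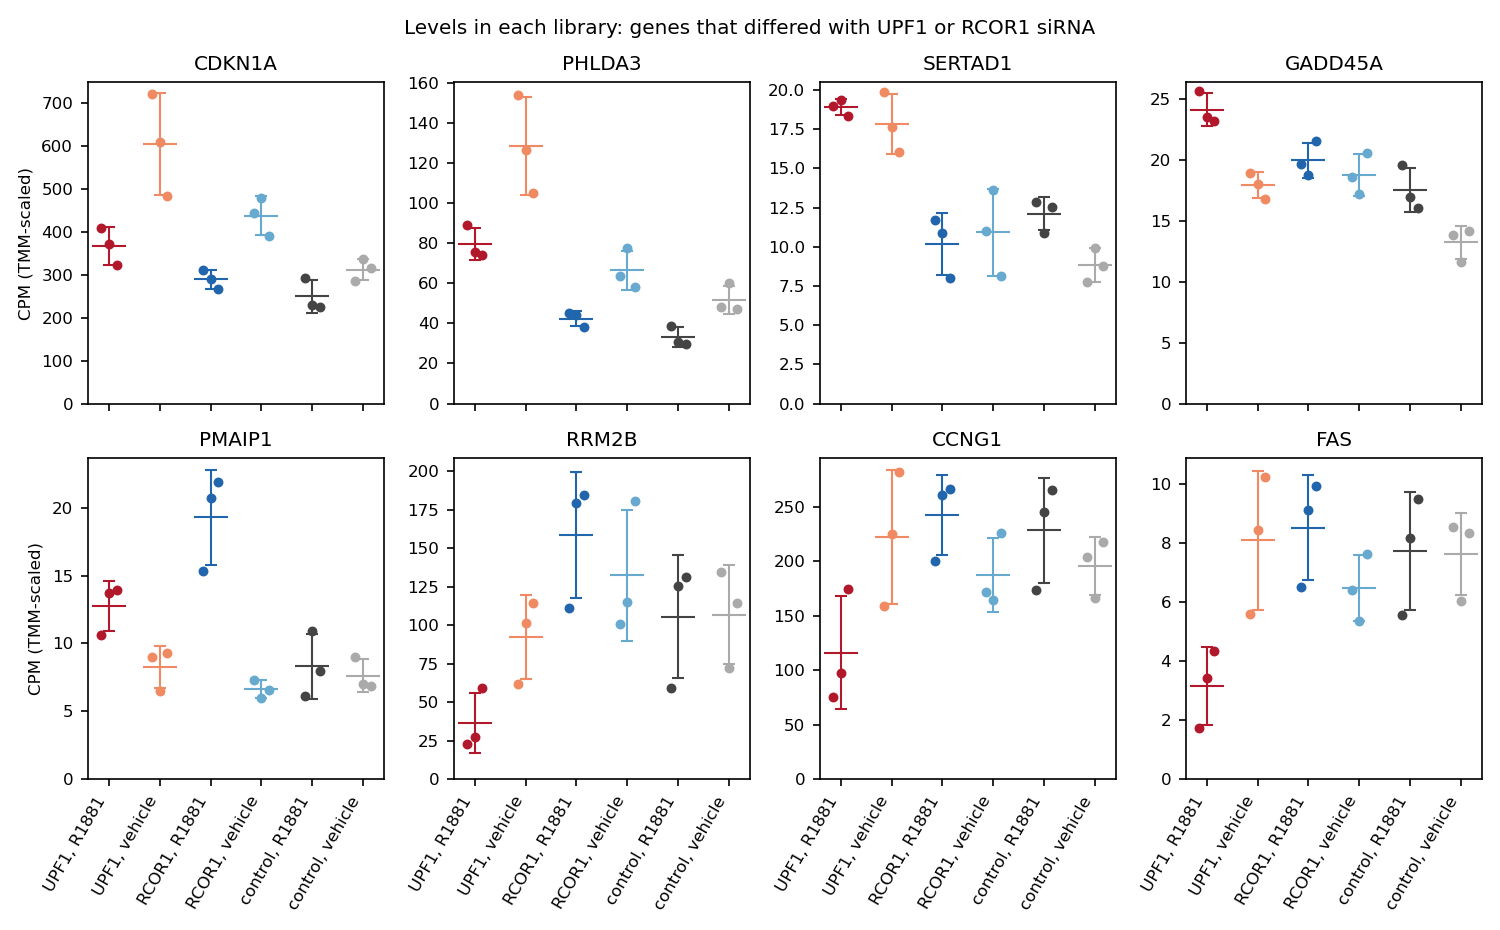
Level in each library (CPM, points; line and bar are mean and SD, n = 3) of 8 p53 target genes called with UPF1 or RCOR1 siRNA. Targeting siRNAs stand left of control siRNA, and R1881 left of vehicle. CDKN1A and PHLDA3 are highest with UPF1 siRNA in vehicle, PMAIP1 with RCOR1 siRNA in R1881, and RRM2B, CCNG1 and FAS have their lowest mean with UPF1 siRNA in R1881, where replicates 1 and 2 are the libraries low in AT-rich transcripts.

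MDM4, the partner of MDM2 that masks the activation domain of p53, was called once, at 0.30 ± 0.11 (adjusted p = 0.045) for R1881 with RCOR1 siRNA, and stood at 0.10 ± 0.11 and 0.00 ± 0.11 with UPF1 and control siRNA. Of 24 genes that regulate p53, 7 were higher and 4 lower with R1881 in the UPF1 arm, 9 and 2 in the RCOR1 arm, and 7 and 4 in the control arm. These are 45.8% of the list called in each arm, where 41.6%, 31.2% and 37.7% of all genes were called. The shares higher were 29.2%, 37.5% and 29.2%, where 21.6%, 16.3% and 20.1% of all genes were higher. The shares lower were 16.7%, 8.33% and 16.7%, where 20%, 14.9% and 17.6% of all genes were lower. The median of the list in the UPF1 arm was 0.08, and -0.02 without the low libraries, where fewer were called with 1 library in the group. With control siRNA, the kinase HIPK2 (0.95 ± 0.075) and the deubiquitinase USP10 (0.86 ± 0.056), both of which act on p53, rose, and the checkpoint kinase CHEK1 fell (-1.38 ± 0.24). UPF1 siRNA lowered 10 and raised 1 of these 24 in R1881, and lowered 7 and raised 0 in vehicle. CHEK2 was among those lowered (-0.70 ± 0.16 and -0.84 ± 0.14). The shares called were 45.8% and 29.2%, where 33.3% and 34.6% of all genes were. The shares lower were 41.7% and 29.2%, where 15.7% and 16% of all genes were lower. The shares higher were 4.17% and 0%, where 17.6% and 18.5% of all genes were higher. The median of the list in R1881 was -0.23, and -0.24 without the low libraries, with 1 library in the group. RCOR1 siRNA lowered 3 in R1881 and 2 in vehicle and raised 0 in either (12.5% and 8.33% lower, where 7.33% and 6.21% of all genes were), among them the ubiquitin ligase COP1 (-0.34 ± 0.085 and -0.43 ± 0.085).

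A second list of 25 p53 targets, of which 23 were tested, was lower in 10 and higher in 1 case with R1881 and UPF1 siRNA, in 6 and 1 with RCOR1 siRNA, and in 7 and 4 with control siRNA. The shares called were 47.8%, 30.4% and 47.8%, where 41.6%, 31.2% and 37.7% of all genes were called. The shares lower were 43.5%, 26.1% and 30.4%, where 20%, 14.9% and 17.6% of all genes were lower. The shares higher were 4.35%, 4.35% and 17.4%, where 21.6%, 16.3% and 20.1% of all genes were higher. The medians were -0.32, -0.18 and -0.15. Without the low libraries the median in the UPF1 arm was -0.35, and fewer were called with 1 library in the group. The cytokine LIF fell in all 3 arms, at -1.36 ± 0.23, -0.74 ± 0.23 and -1.41 ± 0.23, and so did the adhesion protein NINJ1, at -0.75 ± 0.15, -0.61 ± 0.14 and -0.76 ± 0.15. With UPF1 siRNA the list went the other way against control siRNA, with 10 higher and 1 lower in R1881 and 11 higher and 2 lower in vehicle, at medians of 0.29 and 0.40. The shares higher were 43.5% and 47.8%, where 17.6% and 18.5% of all genes were higher. In R1881 without the low libraries the median was 0.21, and fewer were called with 1 library in the group. ABHD4 (1.01 ± 0.12 and 1.21 ± 0.12) and TRIM22 (0.88 ± 0.17 and 1.40 ± 0.17) rose in both treatments. RCOR1 siRNA raised 3 and lowered 2 of them in R1881, and raised 2 and lowered 1 in vehicle, or 5 and 3 of 23 called, where 12.4% and 11.5% of all genes were.

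GDF15, a stress cytokine of the second list, had 1085, 966 and 882 CPM in R1881 against 1069, 902 and 691 CPM in vehicle with UPF1 siRNA. It had 223, 216 and 197 CPM against 211, 233 and 180 CPM with RCOR1 siRNA, and 683, 594 and 555 CPM against 171, 209 and 185 CPM with control siRNA. All libraries with UPF1 siRNA lay above the control libraries of the same treatment, and those with RCOR1 siRNA and R1881 lay below the control libraries with R1881. GDF15 rose with R1881 and control siRNA by 1.70 ± 0.14 and stood at 0.14 ± 0.14 and 0.03 ± 0.14 with UPF1 and RCOR1 siRNA, with interactions of -1.56 ± 0.20 (adjusted p = 0.00055) and -1.67 ± 0.20 (adjusted p = 0.00067). Against control siRNA, UPF1 siRNA raised it in vehicle by 2.24 ± 0.15 (adjusted p = 3e-08) and in R1881 by 0.68 ± 0.14 (adjusted p = 0.0017). The UPF1 values without the low libraries were 0.48 in R1881 (adjusted p = 0.16) and -1.70 for the interaction (adjusted p = 0.013). RCOR1 siRNA lowered it in R1881, at -1.53 ± 0.14 (adjusted p = 6.1e-06), and it stood at 0.14 ± 0.14 (adjusted p = 0.61) in vehicle.

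Genes that p53 represses through p21 and the DREAM complex, such as cyclin and mitotic kinase genes, were lower with UPF1 siRNA and also with R1881. CDKN1A was higher with UPF1 siRNA, though at 0.31 in R1881 without the low libraries. With R1881 CDKN1A was lower in the UPF1 and RCOR1 arms. The part of p21 in the levels of these genes was not tested. Of 12 such genes, 10, 12 and 12 fell with R1881 in the UPF1, RCOR1 and control arm, with medians of -1.45, -1.13 and -1.52. Of all genes, 20%, 14.9% and 17.6% were lower in these arms. UPF1 siRNA lowered all 12 in R1881 and in vehicle, with medians of -1.42 and -1.62, where 15.7% and 16% of all genes were lower. Without the low libraries, with 1 library in the group, the median in R1881 was -1.47. RCOR1 siRNA lowered 3 in R1881 and 11 in vehicle, with medians of -0.36 and -0.82, where 7.33% and 6.21% of all genes were lower. The mitotic kinase PLK1, for one, stood at -1.95 ± 0.17, -1.25 ± 0.16 and -1.83 ± 0.16 for R1881 with UPF1, RCOR1 and control siRNA, and at -1.82 ± 0.17 and -1.70 ± 0.15 for UPF1 siRNA in R1881 and vehicle.

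Per kilobase of exonic length, the members spanned a wide range of levels, and with control siRNA a different member stood highest in R1881 than in vehicle. With control siRNA in R1881, levels ran from 0.740 CPM per kilobase for PLK3 to 95.0 for TNFRSF10B, with a median of 7.31. In vehicle they ran from 0.825 for PLK3 to 102 for CDKN1A, with a median of 7.27. TNFRSF10B stood at 31.2 in vehicle, and TP53INP1 at 31.5 in R1881 against 88.5 in vehicle. With UPF1 siRNA CDKN1A was the highest member in both treatments, at 120 in R1881 and 198 in vehicle, and so it was with RCOR1 siRNA, at 94.8 and 143.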

How the data were processed

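RNA was measured in 18 libraries of LNCaP cells, with 500 ng of RNA per library and ribosomal RNA removed, per the labels' protocols. The deposited values are raw counts, whole reads per gene and library, which the authors did not normalize. Per the submitters' processing notes, bcl2fastq 2.20, STAR 2.7.9a, featureCounts of Subread 1.6.4 and the build GRCh38.p7 were used. No source used here gives the annotation release or the strand setting, so reads of overlapping genes cannot be assigned with certainty.

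The model was fitted with edgeR 4.0.16 under R 4.3.3: filterByExpr by group, scaling by trimmed mean of M values, 1 mean per group over all 18 libraries, and quasi-likelihood tests with Benjamini-Hochberg adjustment over 15390 genes (threshold 0.05). Values after ± are SE of log2 fold changes or SD of CPM over 3 libraries. The common dispersion was 0.024. The 9 comparisons were R1881 against vehicle in each siRNA arm, each targeting siRNA against control siRNA in each treatment, and both interactions (the response to R1881 in a targeting arm less that in the control arm). Replicate numbers were given in the order of the samples, are names only and pair nothing. Genes were matched by symbol, 32 of 32; positions, lengths and GC content come from GENCODE on GRCh38, which may differ from the authors' annotation. Every member is reported, with values per library for those called and past 1 on the log2 scale in either direction; of the other lists, MDM4 and up to 4 called genes with the largest change. CDKN1A, TNFRSF10A and, of the other lists, GDF15 were given per library as well, after their values were seen. 1 item is not reported here. Members and lists were chosen with earlier results of these data known. The fit was tested on simulated counts, which were drawn for each gene on its own. They held no within-group component shared among genes, so that test does not show how calls hold under such a component. Alternatives were other scalings, no low-count filter, only the groups compared, a within-group component as covariate, DESeq2 1.42.0, and leaving out libraries; for the other lists, leaving out the 2 low libraries was chosen after seeing the data.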

Additional observations from a re-analysis of the deposited data

Results flagged for a closer look

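In the fit over all 18 libraries, the response of TNFRSF10B to R1881 was smaller with UPF1 siRNA than with control siRNA, at log2 fold changes of 1.20 and 1.603, a difference of -0.41 ± 0.10 (edgeR adjusted p = 0.038; all R1881 libraries higher than all vehicle libraries in both arms). This call was lost in 11 of 12 fits without 1 library (adjusted p up to 0.16), without both low libraries, with only the groups compared, with relative log expression factors, library size alone or no low-count filter, and with DESeq2 (adjusted p = 0.062 to 0.26 in these). The response of PMAIP1 was larger with RCOR1 siRNA than with control siRNA, at 1.54 and 0.12, a difference of 1.42 ± 0.30 (edgeR adjusted p = 0.038; all 3 R1881 libraries higher than all 3 vehicle libraries with RCOR1 siRNA, overlapping groups with control siRNA). That call was lost in 9 of 12 fits without 1 library (adjusted p up to 0.12) and with only the groups compared (adjusted p = 0.071).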

How the results depend on the processing

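No call of a member turned direction under any alternative run: of the values of single members, 3665 kept their side of the threshold, 142 lost the call and 129 gained one. Leaving out 1 library gave 18 to 23 calls for R1881 with UPF1 siRNA, 14 to 16 with RCOR1 siRNA and 17 to 19 with control siRNA; 12 to 16 and 8 to 11 for UPF1 siRNA in R1881 and vehicle; 5 to 6 and 4 to 6 for RCOR1 siRNA; and 0 to 4 and 0 to 2 for the UPF1 and RCOR1 interactions. Without both low libraries of UPF1 siRNA with R1881 the fit has 1 library in that group. Calls were then lost for R1881 with UPF1 siRNA, UPF1 siRNA in R1881 and the UPF1 interaction. With the within-group component as covariate, which was derived from the same counts, the counts were 20 for UPF1 siRNA in vehicle, 14 and 13 for RCOR1 siRNA in R1881 and vehicle, and 10 and 6 for the UPF1 and RCOR1 interactions. That component held 41.2% of the variance within groups over all genes tested. For none of these alternative fits was the share of all genes called computed, so their counts do not set the members apart from other genes. With only the groups compared, RCOR1 siRNA in vehicle had 3 calls and both interactions 0. The UPF1 and RCOR1 interactions had 0 and 2 calls with relative log expression factors, 2 and 2 with library size alone, 3 and 2 with no low-count filter, and 2 and 3 with DESeq2. TNFRSF10B, the member called for the UPF1 interaction, was not among the calls under any of these 4 settings, while PMAIP1 kept its call for the RCOR1 interaction under each. For the genes of the other lists, leaving out both low libraries was chosen after seeing the data: 34 values lost their call, 1 gained one and 178 kept their side of the threshold. The cause was not tested. Library size alone moved the median of all genes by -0.24, -0.19 and -0.09 for R1881 with control, RCOR1 and UPF1 siRNA, 0.12 for UPF1 siRNA in R1881 and 0.15 for the UPF1 interaction. The share of higher calls among all genes was then 37.3% instead of 51.9%, 29.3% instead of 52.3% and 26.5% instead of 53.3% for R1881 with UPF1, RCOR1 and control siRNA, 67.1% instead of 52.8% and 67.7% instead of 40.8% for UPF1 and RCOR1 siRNA in R1881, and 75.2% instead of 49.6% and 50.9% instead of 29.7% for the interactions. Under it 21, 17 and 20 members were lower and 4, 3 and 2 higher with R1881 in the UPF1, RCOR1 and control arm. The shares of all genes lower or higher in that fit were not computed, so these counts were not set against other genes. No paired analysis was possible because the labels give the samples no replicate numbers; the numbers used here follow the order of the samples and only name them. Low counts limit SFN, PLK3, BBC3 and TNFRSF10C most.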
